A study of Mus musculus with 35 samples.

Results

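The 33 genes described here are genes of microglia, the resident macrophages of the brain. They were given as a fixed list of symbols, each of which matched 1 Ensembl gene, and they are 33 of the 52636 genes counted. Their RNA was measured in cells of the anterior and posterior amygdala that were collected with a laser capture microscope, in 35 libraries from 19 female mice. The mice belonged to the inbred strain C57BL/6J or the hybrid strain B6D2F1N, and lived in standard cages, with mock handling, or in enriched housing with access to a playground for 1 h per day. Housing differed from postnatal day 77, all mice were trained from postnatal day 70 on a touchscreen task for 37 to 90 days, and tissue was taken after a test of cognitive judgment bias. The labels name no transgene, deletion or drug for any mouse. The C57BL/6J groups had 4 anterior and 4 posterior libraries in standard housing, and 2 anterior and 4 posterior libraries in enriched housing. The B6D2F1N groups had 5 libraries of each portion in standard housing, and 5 anterior and 6 posterior libraries in enriched housing. Both portions were available from 16 mice. Portions are named here as in the labels, since the distances from bregma in the study's methods place the posterior portion in front of the anterior one.

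Microglia survive through the receptor CSF1R, which binds CSF1 and IL-34, and keep their identity through TGF-beta signalling and transcription factors such as PU.1, IRF8 and SALL1. They sense ADP through P2RY12 and fractalkine through CX3CR1, tag synapses with complement C1q, and signal through receptors such as TREM2 that pair with ITAM adaptors, above all TYROBP (DAP12). In the amygdala they lie among neurons, astrocytes and vessels, so a tissue library holds their transcripts as a small share of all RNA. In such bulk samples fewer microglia and less RNA per microglial cell cannot be told apart.

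The ETS factor PU.1, encoded by the member Spi1, binds DNA at a purine-rich core. Promoter windows of 300 bases (250 before and 50 after the RefSeq start) are shown for the most abundant member and for members whose levels differed between portions or strains, with each GAGGAA, or TTCCTC on the other strand, in capitals. The sequences are from RefSeq, build GRCm38.p6, and read 5′ to 3′ on the gene's strand. Ctss lies at chr3:95526536-95526835 (plus strand), Trem2 at chr17:48346151-48346450 (plus strand), Aif1 at chr17:35176003-35176302 (minus strand) and Fcrls at chr3:87263475-87263774 (minus strand).
Ctss: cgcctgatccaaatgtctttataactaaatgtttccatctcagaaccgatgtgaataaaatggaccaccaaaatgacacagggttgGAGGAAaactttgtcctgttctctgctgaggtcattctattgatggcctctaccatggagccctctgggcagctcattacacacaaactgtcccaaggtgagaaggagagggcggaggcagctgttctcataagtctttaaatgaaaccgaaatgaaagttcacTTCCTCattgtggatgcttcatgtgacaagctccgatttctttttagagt
Trem2: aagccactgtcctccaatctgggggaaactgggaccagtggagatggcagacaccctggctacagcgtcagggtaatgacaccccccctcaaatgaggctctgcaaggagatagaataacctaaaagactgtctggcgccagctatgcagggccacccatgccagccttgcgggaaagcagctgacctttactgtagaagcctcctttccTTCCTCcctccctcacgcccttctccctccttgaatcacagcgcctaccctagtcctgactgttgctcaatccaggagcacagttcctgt
Aif1: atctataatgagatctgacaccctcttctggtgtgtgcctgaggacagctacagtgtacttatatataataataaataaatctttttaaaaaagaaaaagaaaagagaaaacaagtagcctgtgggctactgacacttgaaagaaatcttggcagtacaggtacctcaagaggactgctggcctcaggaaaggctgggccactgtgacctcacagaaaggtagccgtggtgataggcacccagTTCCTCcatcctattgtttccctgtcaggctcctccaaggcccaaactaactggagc
Fcrls: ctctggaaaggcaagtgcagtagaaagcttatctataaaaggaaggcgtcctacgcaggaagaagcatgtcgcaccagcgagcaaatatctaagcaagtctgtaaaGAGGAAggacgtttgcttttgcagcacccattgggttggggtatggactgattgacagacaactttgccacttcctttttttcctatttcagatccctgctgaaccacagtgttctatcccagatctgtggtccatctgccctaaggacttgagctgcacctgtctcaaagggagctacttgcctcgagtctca
The Ctss window held 2 matches and the other 3 windows held 1 each. A window was found for 26 of the 33 members, and 17 of these (65.4%) held GAGGAA on either strand, against 31.3% of 27025 genes. The longer motif GAGGAAGT, which contains GAGGAA, was found in 5 of the 26 members (19.2%), namely C1qc, Cd53, Ctss, Cyth4 and Hpgds, against 3.69% of all genes. These are matches of letters and describe the windows only.

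All 33 genes were detected. For 32 of them a count was present in every library, and Spi1 was at 0 in 1 library. Libraries held between 16938534 and 27352623 gene counts, with a median of 21409708, and the 33 genes together took 0.121% to 0.217% of them. Values are given as CPM, the count divided by the library size after TMM scaling over all 35 libraries, and levels of single genes are compared with each other as CPM per kilobase of exon. On that scale Ctss, the lysosomal protease cathepsin S, had the highest median at 237, followed by the ADP receptor gene P2ry12 at 83.2 and the complement genes C1qb at 81.3 and C1qa at 45.6. The lowest medians were those of the transcription factor genes Irf8 at 0.587 and Spi1 at 0.194, and Sall1, the third factor, stood at 1.61. The order of neighbours was not fixed, since the ranges of P2ry12 (40.0 to 128) and C1qb (39.8 to 128) overlapped nearly in full.

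**Figure D1:**
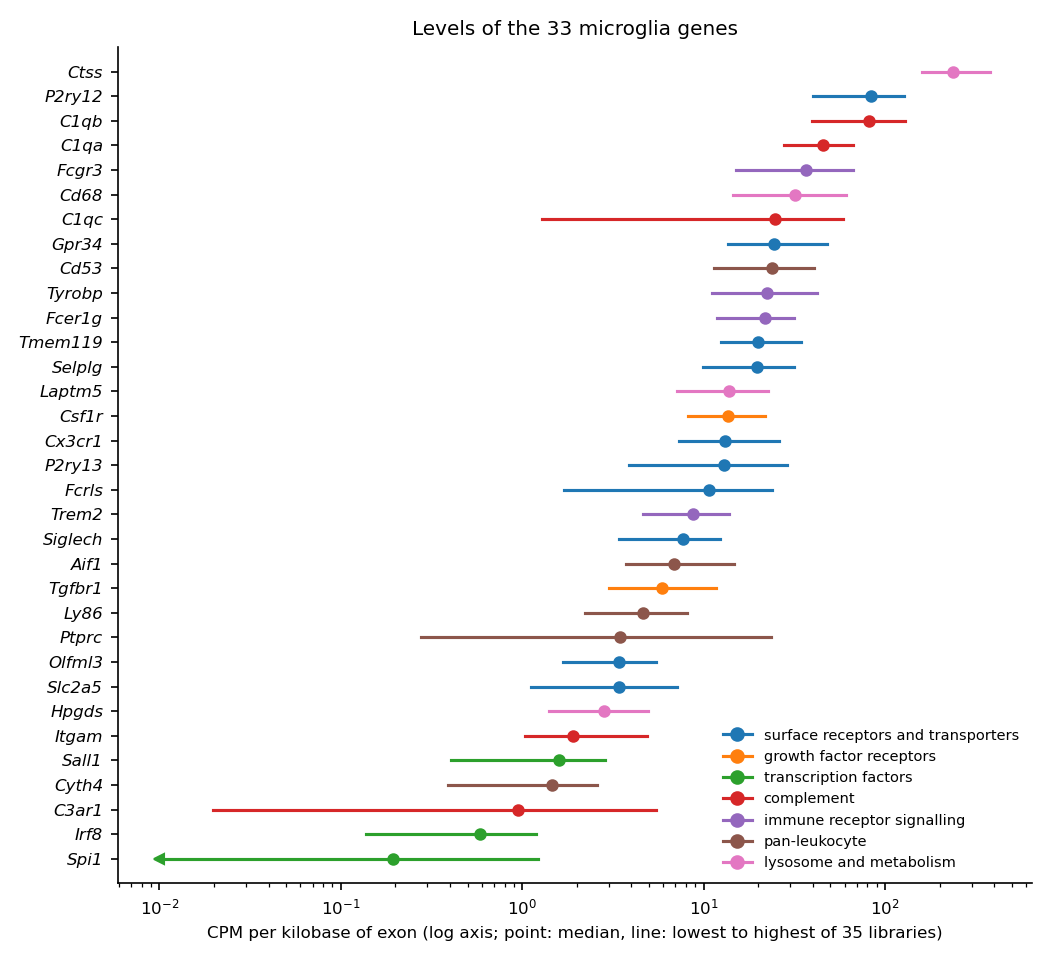
Median level of each of the 33 microglia genes over 35 libraries (point, CPM per kilobase of exon, log axis) with the lowest to the highest library (line), coloured by the role of the gene. The arrow marks Spi1, whose lowest library is at 0. Ctss stands highest at 237 and Spi1 lowest at 0.194, and the widest spans are those of Ptprc, C1qc, C3ar1 and Spi1.

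The defining markers of microglia were among the well-measured members. Tmem119, a membrane protein that tells microglia from other macrophages, had a median of 19.9 CPM per kilobase, and Cx3cr1 and P2ry13 had 13.0 and 12.9. The growth factor receptor gene Csf1r stood at 13.6 and Tgfbr1 at 5.88. In CPM not scaled by length, 12 markers of border macrophages, such as Mrc1, Cd163 and Pf4, summed to 4.04 to 32.6 CPM per library and the 32 members other than Ptprc to 962 to 2237 CPM. Ptprc is kept apart from that sum because it had the highest coefficient of variation, as described below.

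Spread between libraries differed by member. The coefficient of variation over the 35 libraries was 21.3% for Ctss, 22.3% for C1qa and 98.1% for Ptprc, which encodes the leukocyte phosphatase CD45, with a median of 34.2% over the 33 members. Among the 11392 genes with a mean of 5 to 400 CPM the median was 31.1%. C1qc, the C chain of the same C1q molecule as C1qa and C1qb, ranged from 1.29 to 58.8 CPM per kilobase, a 45.5-fold span, while C1qa spanned 2.41-fold and C1qb 3.22-fold. The highest value of 9 members was in C57BL/6J standard anterior mouse 2, and the lowest value of 9 members was in B6D2F1N standard posterior mouse 4. Sall1 was the reverse, lowest in the former library at 2.13 CPM and highest in the latter at 15.0 CPM. For a few members reads could also come from another gene: 80% of the 72-base windows of Itgam (CD11b) are also in Gm49368, 22.5% of those of the IgG receptor gene Fcgr3 in Fcgr2b, and 6.65% of those of Csf1r in Hmgxb3, so the values of these genes are less certain.

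Some libraries stood apart. Both libraries of B6D2F1N standard mouse 1 held no Xist, which was at 54.4 to 206 CPM in the other 33 libraries, and 4 Y-linked genes summed to at most 1 count in any library. In B6D2F1N enriched mice 1 and 3 the choroid plexus markers summed to 13885 to 14351 CPM in the posterior library, against at most 4526 CPM elsewhere. In the posterior libraries of B6D2F1N standard mice 2 to 5 the matrix gene Dcn was at 8.93 to 55.3 CPM, against 173 to 1715 CPM in the other 15 posterior libraries. Of these 4 libraries, those of mice 4 and 5 had striatal projection neuron markers summing to 811 and 450 CPM, against at most 344 CPM in other posterior libraries. Their oligodendrocyte markers summed to 2412 and 2630 CPM, against at least 7021 CPM in other posterior libraries. The part of the captured tissue in the microglia gene values of these libraries was not tested. Calls of members are given with and without these mice only where fits without them are described. Sums, medians and counts of estimates below 0 are given with all mice only.

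The first comparison asked how the posterior amygdala differed from the anterior amygdala of the same mouse. Over both strains (16 mice), 7 of the 33 microglia genes were lower in the posterior portion and 0 were higher (edgeR quasi-likelihood test with the mouse as a block, Benjamini-Hochberg adjusted p of at most 0.05 over 29437 genes). Over all genes tested, 8.60% passed in either direction and 4.69% passed as lower. The median log2 difference, posterior minus anterior, was -0.26 over the 33 genes and 0.12 over all genes tested, and 30 of the 33 estimates were below 0. At an unadjusted p under 0.05, 13 members were lower and 0 were higher (19.9% of all genes in either direction), and DESeq2 called 10 lower and 0 higher (11.7% of all genes).

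**Figure D2:**
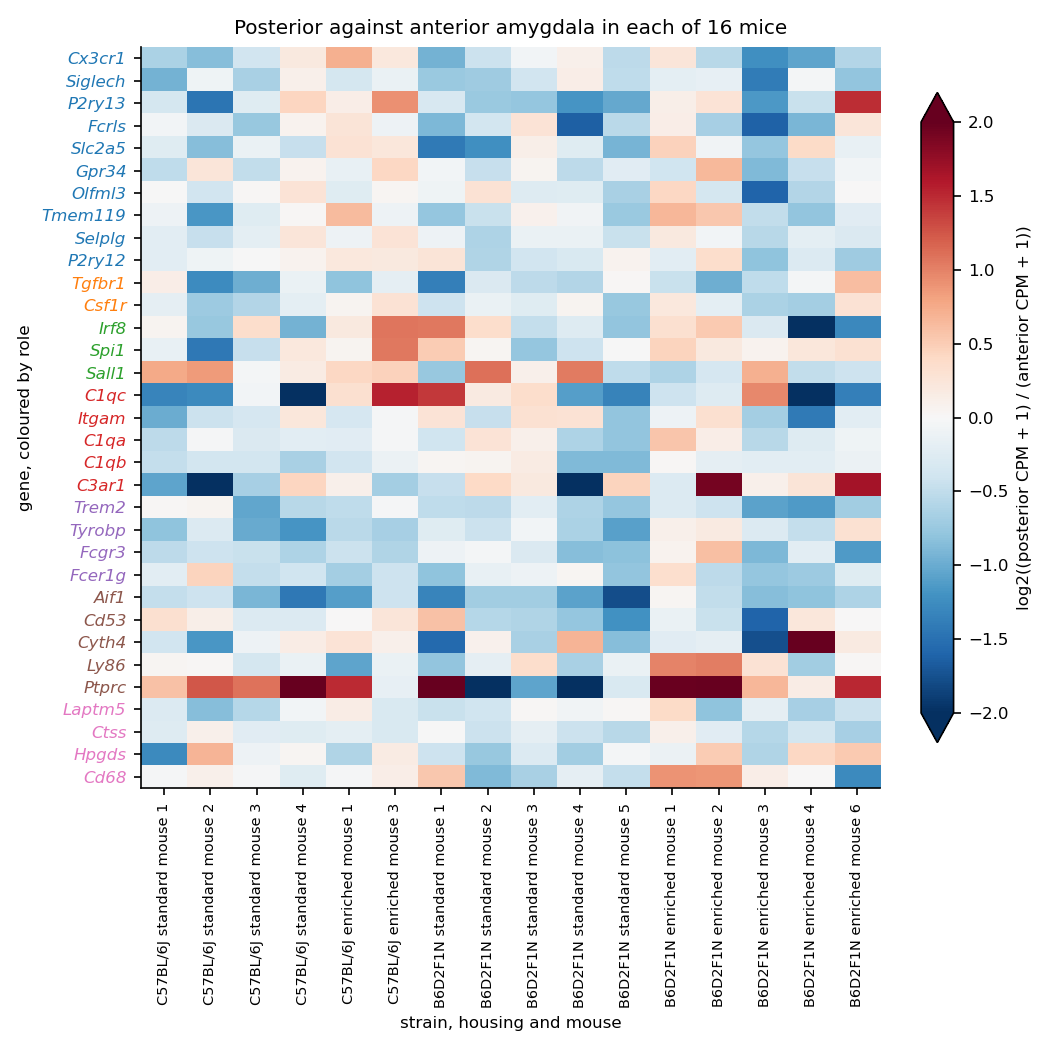
Posterior against anterior level of each microglia gene (rows, coloured by role) in each of 16 mice (columns), as log2 of the ratio of CPM + 1. Most cells are on the lower side, with 12 to 30 of the 33 genes lower in the posterior library of a mouse. The strongest rise is in Ptprc and the strongest falls are in C1qc.

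Aif1, which encodes IBA1, the actin-bundling protein stained to see microglia, showed the strongest difference. Its level was 10.0, 15.7 and 22.6 CPM (lowest, median and highest of 16) in the anterior libraries and 5.70, 7.64 and 10.9 CPM in the posterior libraries of the same mice. The ranges overlapped only at their edges, and Aif1 was lower in the posterior portion in 15 of 16 mice. The log2 difference was -0.88 ± 0.16 (SE, n = 16 mice), with an edgeR adjusted p of 0.000577.

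Of the 4 genes of immune receptor signalling, 3 were lower in the posterior portion. Trem2, a lipid-sensing receptor gene, was at 31.7, 51.8 and 68.2 CPM in anterior libraries, against 22.9, 33.7 and 53.3 CPM in posterior ones. The groups overlapped, while 14 of 16 mice had the lower value in the posterior portion (log2 difference -0.51 ± 0.11, edgeR adjusted p = 0.00222). Fcgr3 was at 38.4, 72.4 and 116 CPM in anterior libraries, against 26.0, 57.6 and 80.5 CPM in posterior ones, and was lower in 14 of 16 mice. Its log2 difference was -0.42 ± 0.11 (edgeR adjusted p = 0.0205). Tyrobp, the adaptor of TREM2, was at 9.34, 18.5 and 27.7 CPM and at 7.39, 13.8 and 18.7 CPM, and the posterior value was lower in 13 of 16 mice. Here the log2 difference was -0.46 ± 0.14 (edgeR adjusted p = 0.0464). The other adaptor gene, Fcer1g, had -0.35 ± 0.13 and did not pass (edgeR adjusted p = 0.100).

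The other 3 genes that passed belong to different groups. Tgfbr1, the type I TGF-beta receptor gene, went from a mean of 44.5 ± 14.8 (SD, n = 16) to 31.9 ± 10.2 CPM and was lower in 13 of 16 mice (log2 difference -0.46 ± 0.13, edgeR adjusted p = 0.0278). Siglech, a sialic acid-binding lectin gene, went from 29.0 ± 7.20 to 21.7 ± 7.29 CPM and was lower in 14 of 16 mice (-0.43 ± 0.13, edgeR adjusted p = 0.0305). Ctss had the smallest of the differences, from 359 ± 67.6 to 297 ± 62.1 CPM, with lower values in 14 of 16 mice (-0.27 ± 0.08, edgeR adjusted p = 0.0412). For these 3 genes the ranges of the 2 portions overlapped widely. Without the mouse as a block Tgfbr1 still passed and Siglech and Ctss did not.

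**Figure D3:**
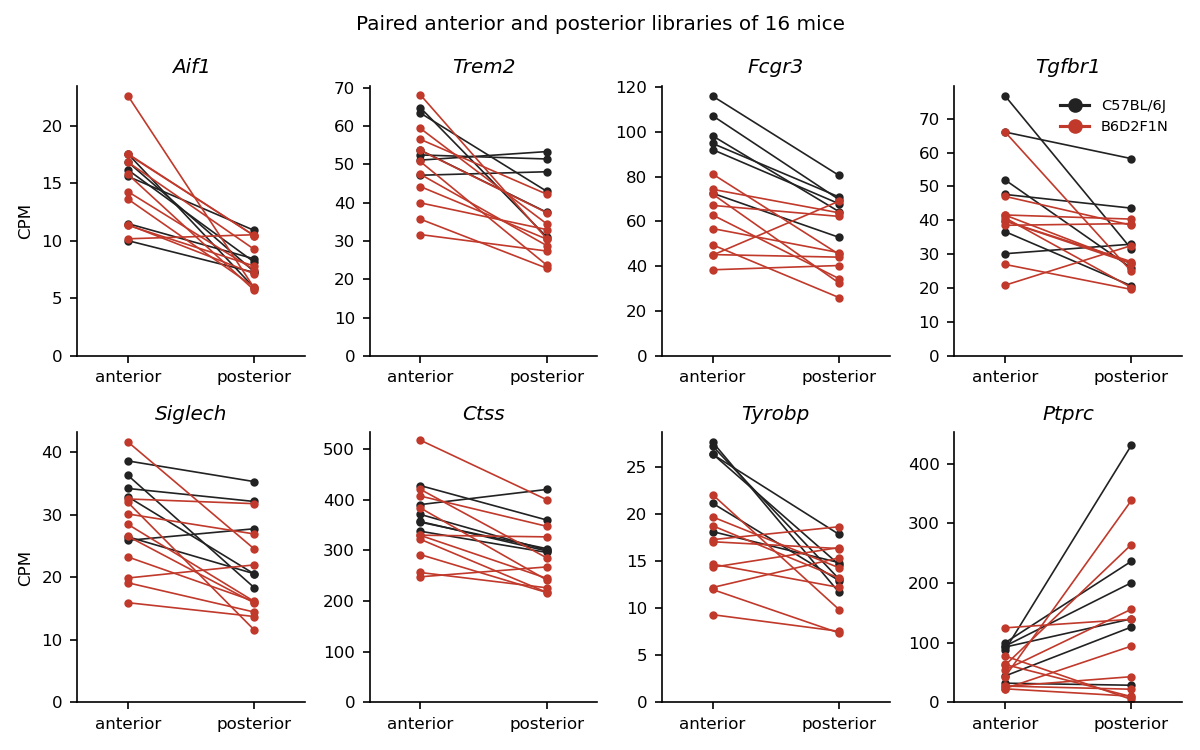
CPM of the genes that differed between portions and of Ptprc in the anterior and posterior library of each of 16 mice (lines join the libraries of 1 mouse, colours mark the strain). Lines of Aif1 fall in 15 of 16 mice and those of Trem2 in 14, while lines of Ptprc rise in 11.

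The remaining 26 members did not pass. In the group of surface receptors and transporters, which also holds the secreted Olfml3, 1 of 10 passed. The estimates of all 10 were below 0, from -0.14 ± 0.10 for P2ry12 to -0.43 ± 0.16 for the scavenger receptor gene Fcrls. The complement genes had 0 of 5 past the threshold by edgeR, with 1, C1qb, under an unadjusted p of 0.05 and called by DESeq2 (log2 difference -0.27 ± 0.09, edgeR adjusted p = 0.0769). None of the 3 transcription factor genes passed by edgeR, DESeq2 or an unadjusted p under 0.05, with estimates of 0.19 ± 0.20 for Sall1, -0.24 ± 0.31 for Irf8 and 0.10 ± 0.56 for Spi1. For Irf8 and Spi1 a difference of the size seen in Trem2 lies within 2 SE of the estimate. The lysosomal glycoprotein gene Cd68 had -0.05 ± 0.14 and was lower in the posterior portion in 9 of 16 mice.

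Summed over the 32 members other than Ptprc, the posterior library was lower in 14 of 16 mice. With Ptprc in the sum it was lower in 10 of 16 mice. Both counts include the mice whose libraries stood apart.

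Without 2 sets of mice the list shortened. When the 2 mice with high choroid plexus markers were left out, 4 members were lower (Aif1, Fcgr3, Trem2 and Tyrobp). When the 4 mice low in Dcn were left out, Aif1 (-0.78, edgeR adjusted p = 0.0157) and Trem2 (-0.50, edgeR adjusted p = 0.0202) were lower and Ptprc was higher. The posterior libraries so removed had Ptprc at 5.04 to 22.1 CPM, against 21.0 to 431 CPM in the other 15. That fit is therefore no independent test of Ptprc. Without B6D2F1N standard mouse 1, the mouse with no Xist, Aif1, Ctss, Fcgr3 and Trem2 were lower. Aif1, Fcgr3 and Trem2 passed whichever single mouse was left out, while in the 16 such fits the call was lost in 6 for Tgfbr1 and for Siglech, in 10 for Ctss and in 11 for Tyrobp. Over all genes those 16 fits called 2109 to 2608, against 2532 with every mouse. For the fits without the 2 sets of mice the calls over all genes are not given here.

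Markers of other cell types also differed between portions. Of the choroid plexus markers 8 of 8 were higher in the posterior portion, as were 6 of 6 ependymal, 5 of 10 astrocyte and 2 of 9 meningeal fibroblast markers, while 6 of 9 excitatory neuron (with 1 higher), 2 of 8 inhibitory neuron (Npy and Vip) and 3 of 11 endothelial and pericyte markers were lower. The meningeal fibroblast markers that passed were Dcn, from a mean of 26.6 to 772 CPM (log2 difference 4.24 ± 0.58, edgeR adjusted p = 1.54e-05), and Slc13a4, from 2.09 to 12.1 CPM (2.15 ± 0.56, edgeR adjusted p = 0.0141). Col1a1 and Lum of that list did not pass. Their medians in the paired anterior and posterior libraries were 1.22 and 1.57 CPM for Col1a1, and 4.46 and 11.1 CPM for Lum. Border macrophage markers had 0 of 12 called by edgeR or DESeq2, with 2 lower at an unadjusted p under 0.05, and summed to 4.63 to 32.6 CPM in anterior libraries and to 4.04 to 24.7 CPM in posterior ones, with 0 of the 12 at 0 in all libraries of a portion. The part of these cell types in the lower levels of the 7 microglia genes was not tested.

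Within C57BL/6J (6 mice), 1 of the 33 microglia genes was higher in the posterior portion and 0 were lower (3.64% of 25751 genes passed in either direction, 1.54% as higher). The gene was Ptprc, with a log2 difference of 1.10 ± 0.23 (edgeR adjusted p = 0.00936). Without standard mouse 4 it had 0.87 and no longer passed (edgeR adjusted p = 0.0508). DESeq2 also called Aif1, Fcgr3 and Tyrobp lower (5.96% of all genes passed by DESeq2). By edgeR 1 member was higher and 5 were lower at an unadjusted p under 0.05 (13.5% of all genes), and Tyrobp just missed the threshold (-0.78 ± 0.22, edgeR adjusted p = 0.0521) although it was lower in 6 of 6 mice. Aif1 and Fcgr3 were also lower in 6 of 6 mice.

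Within B6D2F1N (10 mice), 2 of the 33 were lower and 0 were higher (4.00% of 27761 genes passed in either direction, 2.37% as lower). Trem2 was lower in 10 of 10 mice (-0.63 ± 0.13, edgeR adjusted p = 0.00970) and Aif1 in 9 of 10 (-0.90 ± 0.22, edgeR adjusted p = 0.0260). At an unadjusted p under 0.05, 10 were lower and 0 higher (15.5% of all genes). DESeq2 called Trem2, Aif1, Ctss and Cx3cr1 lower (7.18% of all genes). Without the mice low in Dcn, neither passed (Trem2 -0.67, edgeR adjusted p = 0.0813, and Aif1 -0.71, edgeR adjusted p = 0.366), and Ptprc was called higher. The posterior libraries of the mice left out were also low in Ptprc, so that call is no independent test of it. With 1 mouse left out at a time, Trem2 passed in 10 of 10 fits and Aif1 in 3 of 10, with edgeR adjusted p-values of 0.0244 to 0.0725 for Aif1.

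Whether the portion effect differed between strains was tested as an interaction, which called 0 members by edgeR and by DESeq2 (0% of 29437 genes by each), with 0 members at an unadjusted p under 0.05 (2.96% of all genes). The portion effect of Ptprc, called in C57BL/6J with all 6 mice and not in B6D2F1N, is therefore not shown to differ between strains. The portion effect did not pass a test of difference between housings for any member by either tool (0% of all genes by edgeR and 0.0102% by DESeq2), and 2 members, P2ry13 (0.85 ± 0.33) and Slc2a5 (0.72 ± 0.34), had an unadjusted p under 0.05 (3.29% of all genes).

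Among the members Ptprc had the highest coefficient of variation, 98.1%, with Spi1 at 96.8% and C3ar1 at 81.8%. In the posterior libraries of C57BL/6J Ptprc was at 140, 237, 201 and 431 CPM in standard housing and at 126, 21.0, 28.8 and 61.1 CPM in enriched housing. In those of B6D2F1N it was at 339, 9.71, 10.4, 5.04 and 22.1 CPM in standard housing and at 94.4, 265, 43.1, 139, 241 and 156 CPM in enriched housing. The highest library thus held 85.5 times the level of the lowest, and in the B6D2F1N standard group mouse 1 alone was high. C3ar1 spanned more, 276-fold, from a lowest library at 0.0855 CPM. Anterior libraries were closer together, between 22.8 and 125 CPM.

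**Figure D4:**
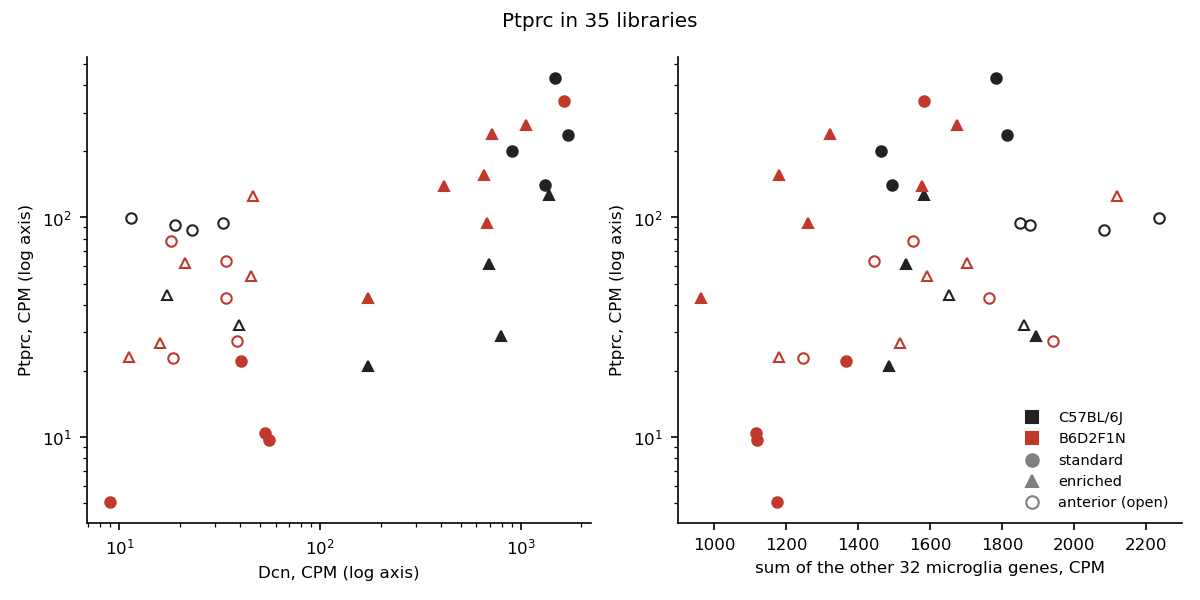
Ptprc (CPM, log axis) against Dcn (CPM, log axis, left) and against the summed level of the other 32 microglia genes (CPM, right) in 35 libraries, coloured by strain with symbols for housing and open symbols for anterior libraries. The 4 posterior libraries with Dcn of 8.93 to 55.3 CPM have Ptprc of 5.04 to 22.1 CPM, while their other members sum to 1117 to 1366 CPM.

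Dcn, which encodes decorin, and Ptprc were both low in the posterior libraries of B6D2F1N standard mice 2 to 5. The 4 posterior libraries with Dcn under 100 CPM had Ptprc at 5.04 to 22.1 CPM, and the other 15 posterior libraries had it at 21.0 to 431 CPM. Among those 15, C57BL/6J enriched mice 2 and 3 had Ptprc at 21.0 and 28.8 CPM with Dcn at 173 and 794 CPM. In the anterior libraries Dcn was at 11.1 to 46.1 CPM with Ptprc at 22.8 to 125 CPM. Of the other meningeal fibroblast markers, Col1a1, Lum and Slc13a4 were at most 11.2, 38.5 and 69.9 CPM in any library. The part of Dcn-expressing cells, and of how the section was captured, in the level of Ptprc was not tested.

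The second comparison asked how B6D2F1N differed from C57BL/6J in each portion and housing. In standard housing, 1 of the 33 microglia genes was lower in B6D2F1N and 0 were higher in the anterior portion (0.370% of 24305 genes passed, 0.0453% as lower) and likewise in the posterior portion (0.373% of 25171 genes, 0.0556% as lower). In both it was Fcrls, a scavenger receptor gene of the Fc receptor-like family. Reads of both strains were aligned to one genome, and the part of this in lower counts of the hybrid was not tested. DESeq2 also called C1qb in the anterior portion (1.05% of all genes) and Slc2a5 in the posterior portion (1.56%), and at an unadjusted p under 0.05 there were 0 higher and 9 lower (9.00% of all genes) and 1 higher and 8 lower (10.3%). In enriched housing 0 passed in the anterior portion by edgeR or DESeq2 (0.0639% of 23459 genes by edgeR and 0.584% by DESeq2), with 1, Fcgr3, lower at an unadjusted p under 0.05 (4.33%). For enriched posterior libraries 0 passed by edgeR (0.394% of 25640 genes), 1 higher and 8 lower had an unadjusted p under 0.05 (9.11%), and DESeq2 called Fcrls lower (1.33%).

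By edgeR, Fcrls passed in both portions in standard housing and in neither in enriched housing, and whether the strain effect differed between housings did not pass for it either. In standard anterior libraries it was at 41.5, 55.5, 54.8 and 50.6 CPM in C57BL/6J and at 29.1, 12.2, 10.2, 14.4 and 25.9 CPM in B6D2F1N. These groups did not overlap, and the log2 difference was -1.46 ± 0.28 (edgeR adjusted p = 0.0337). In standard posterior libraries it was at 40.1, 45.3, 32.1 and 53.2 CPM against 15.1, 9.28, 12.6, 3.97 and 17.5 CPM, again with no overlap (-1.85 ± 0.34, edgeR adjusted p = 0.0305). In enriched posterior libraries it was at 39.5, 27.8, 37.6 and 36.9 CPM against 8.91, 15.3, 6.95, 22.7, 19.5 and 15.1 CPM, also with no overlap, but the test did not pass (-1.25 ± 0.30, edgeR adjusted p = 0.114). In enriched anterior libraries it was at 32.8 and 40.4 CPM against 8.05, 24.9, 23.3, 43.8 and 12.6 CPM, so that 4 of 5 B6D2F1N libraries were below both C57BL/6J values and that of mouse 4 was above them.

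Counted over the members, those lower in every B6D2F1N library than in every C57BL/6J library were C1qb, Fcrls, Gpr34 and Ptprc in standard anterior (4 of 33, against 1.19% of genes), C1qb, Fcrls and Slc2a5 in standard posterior (3 of 33, against 1.36%), and C1qc and Fcrls in enriched posterior libraries (2 of 33, against 0.753%). In enriched anterior libraries, with 2 mice of C57BL/6J, C3ar1, Fcgr3 and Tyrobp were lower in every B6D2F1N library (3 of 33, against 4.90% of genes) and Sall1 was higher in every one (1 of 33, against 3.16%).

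The calls in standard housing depended on few mice. With 1 mouse left out at a time, the anterior call of Fcrls was lost in 7 of 9 fits and the posterior call in 6 of 9, while the log2 difference stayed at -1.32 or below in each. Without the 4 posterior libraries low in Dcn only mouse 1 of B6D2F1N standard housing was left, so that fit says nothing about stability. Without that mouse, Fcrls passed in both portions and Ptprc was also called lower in the posterior portion.

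**Figure D5:**
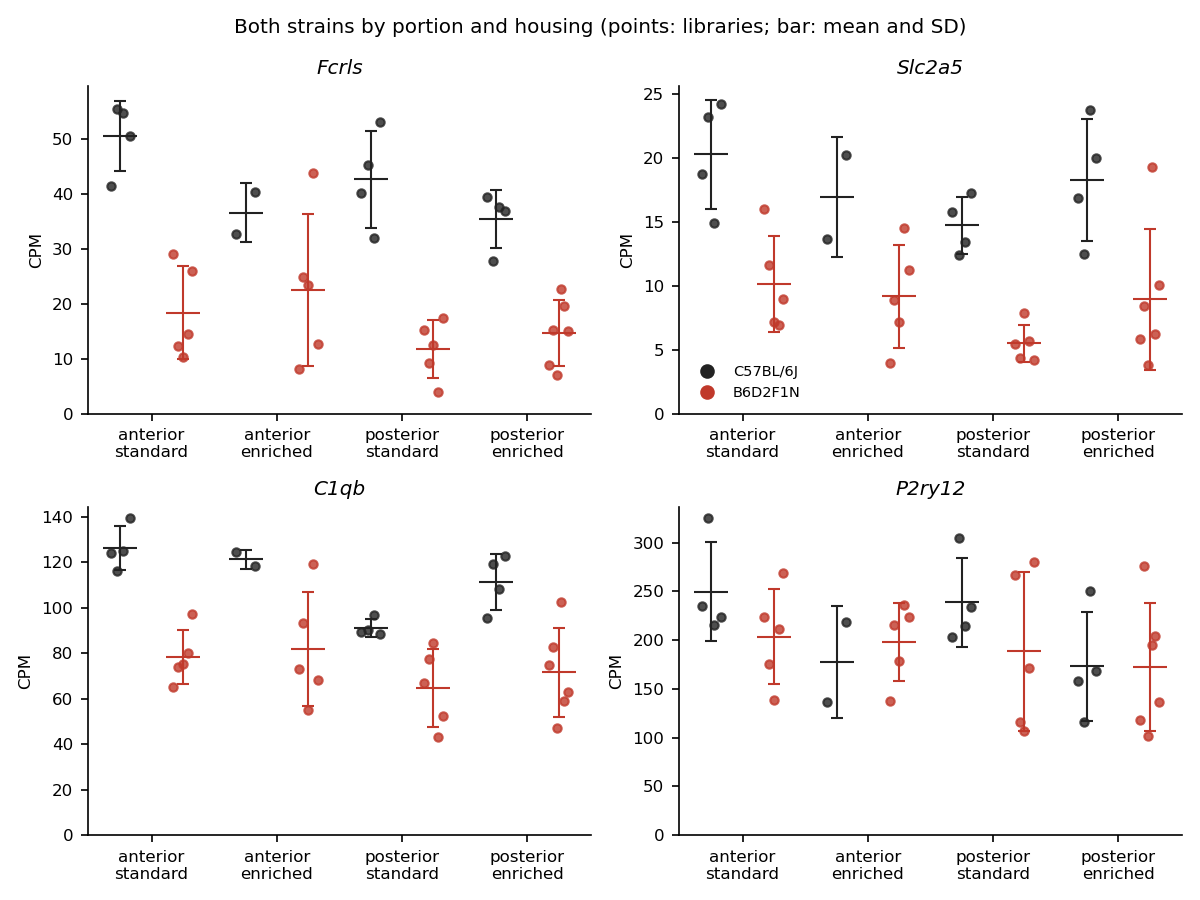
CPM of Fcrls, Slc2a5, C1qb and P2ry12 in each library by portion, housing and strain (points, with mean and SD as bars). The 11 B6D2F1N posterior libraries of Fcrls lie between 3.97 and 22.7 CPM, below the 8 C57BL/6J libraries at 27.8 to 53.2 CPM.

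With both housings in 1 fit, and housing as a term, 2 of the 33 members were lower in B6D2F1N in the posterior portion and 0 were higher (0.858% of 27871 genes passed, 0.133% as lower). Fcrls had a log2 difference of -1.55 ± 0.24 (edgeR adjusted p = 0.000405, n = 8 and 11) and was the 1 member lower in every B6D2F1N library than in every C57BL/6J library, as 0.0646% of genes were. In the anterior portion 0 members were, against 0.0759% of genes. Slc2a5, the gene of the fructose transporter GLUT5, was at 12.4, 16.3 and 23.7 CPM (lowest, median and highest) in C57BL/6J and at 3.81, 5.83 and 19.3 CPM in B6D2F1N. Its groups overlapped through 1 B6D2F1N library, that of enriched mouse 4 (-1.21 ± 0.25, edgeR adjusted p = 0.0100). Without the libraries low in Dcn, Fcrls remained past the threshold (-1.31, edgeR adjusted p = 0.00611) and Slc2a5 did not (-1.11, edgeR adjusted p = 0.151).

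The members beyond these leaned the same way without passing. In the same posterior fit 31 of 33 estimates were below 0 (median -0.29, against 0.02 over all genes), 12 were lower at an unadjusted p under 0.05 (11.0% of all genes), and DESeq2 also called C1qb and Cx3cr1 (1.91%). These posterior values include the 4 B6D2F1N libraries low in Dcn and are not given without them. In the anterior portion 0 members passed by edgeR (0.615% of 26353 genes did), 8 were lower at an unadjusted p under 0.05 (7.67%), and DESeq2 called C1qb, C3ar1, Fcgr3, Fcrls and Slc2a5 lower (1.36%). The complement gene C1qb was nearest to the edgeR threshold there, at 116 to 139 CPM in C57BL/6J and 54.8 to 120 CPM in B6D2F1N (-0.63 ± 0.15, edgeR adjusted p = 0.0546). P2ry12, the most abundant of the surface receptor genes, had no unadjusted p under 0.05 for strain in either portion.

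The third comparison asked how enriched housing differed from standard housing. By edgeR 0 of the 33 microglia genes passed in each of the 4 strain and portion settings, where 0%, 0.0163%, 0% and 0% of all genes passed in C57BL/6J anterior, C57BL/6J posterior, B6D2F1N anterior and B6D2F1N posterior libraries. At an unadjusted p under 0.05, in the same order, 0 were higher and 3 lower, 1 higher and 2 lower, 0 higher and 1 lower, and 1 higher and 0 lower, where 6.20%, 10.3%, 6.30% and 6.59% of all genes were in either direction. DESeq2 called Gpr34 and Ptprc lower in C57BL/6J anterior libraries (0.437% of all genes), C1qc higher in C57BL/6J posterior libraries (1.30%), and 0 members in B6D2F1N anterior and posterior libraries (0.0325% and 0.0499%).

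C1qc and Ptprc had the largest estimates by housing among the 33 genes in C57BL/6J posterior libraries, in opposite directions. C1qc was there at 26.9, 30.0, 16.2 and 3.39 CPM in standard housing and at 77.9, 99.5, 64.8 and 79.6 CPM in enriched housing. These groups did not overlap, as those of 2 of 33 members (C1qa and C1qc, higher in every enriched library) and of 3.00% of genes did not, and the edgeR test over all genes did not pass (log2 difference 2.07 ± 0.45, adjusted p = 0.172). In B6D2F1N posterior libraries C1qc was at 63.9, 54.9, 62.3, 27.2 and 13.4 CPM in standard housing and at 45.9, 29.9, 47.7, 2.50, 42.4 and 18.4 CPM in enriched housing, with wide overlap. The strain by housing interaction for the posterior portion was -2.58 ± 0.80 for C1qc (edgeR adjusted p = 0.491). In the C57BL/6J posterior libraries the oligodendrocyte marker Mbp was higher in enriched housing (1.97 ± 0.27, edgeR adjusted p = 0.0366). Oligodendrocyte markers summed there to 8345 to 12966 CPM in standard and 18351 to 28870 CPM in enriched housing. The part of this difference in the values of C1qc and Ptprc was not tested.

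Ptprc had lower values in enriched C57BL/6J mice in both portions without passing by edgeR. The anterior libraries were at 92.7, 99.9, 94.3 and 87.6 CPM in standard housing and at 44.2 and 32.2 CPM in enriched housing (-1.31 ± 0.24, edgeR adjusted p = 0.482). The posterior difference was -2.08 ± 0.49 (edgeR adjusted p = 0.195). In both portions the groups did not overlap: 5 of 33 members were lower in both enriched anterior libraries than in all standard ones (6.27% of genes), namely Cd68, Fcrls, Gpr34, P2ry13 and Ptprc, and 1 of 33, Ptprc, was so in posterior libraries (1.97% of genes). Gpr34, a lysophosphatidylserine receptor gene, had -0.82 ± 0.22 in the anterior and -0.65 ± 0.24 in the posterior libraries of C57BL/6J (edgeR adjusted p = 0.599 and 0.431). Fitted over both strains, with strain as a term, 0 members passed for housing in either portion by edgeR or DESeq2 (0% of all genes in each by edgeR, 0.266% and 0.00718% by DESeq2). At an unadjusted p under 0.05 there were 0 higher and 2 lower in the anterior (6.32% of all genes) and 3 higher and 1 lower in the posterior portion (8.51%). The interaction of strain and housing also called 0 members in either portion by edgeR or DESeq2 (0% of all genes in each by edgeR, 0.0417% and 0.133% by DESeq2), with 1 positive in the anterior (5.98%) and 1 positive and 1 negative in the posterior portion (8.38%) at an unadjusted p under 0.05.

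Genes that act with the 33 were read from lists of the same pathways, for portion over both strains, where 8.60% of all genes passed. Among 13 signals that act on microglia, 1 was lower in the posterior portion, a share near that of all genes: Il34, whose product binds CSF1R, went from a mean of 145 ± 42.7 to 93.8 ± 33.4 CPM (SD, n = 16, log2 difference -0.64 ± 0.12, edgeR adjusted p = 0.000723). Within C57BL/6J the TGF-beta gene Tgfb2 of this list was higher (0.85 ± 0.17, edgeR adjusted p = 0.00772). The IL-34 receptor gene Csf1r had -0.23 ± 0.10 (edgeR adjusted p = 0.173). Of 10 transcription factors that act with PU.1, 1, Mef2c, was lower (-0.68 ± 0.18), and neurons also express it. Of 15 other complement genes, 2 were higher in the posterior portion: C4b, from 8.75 to 20.4 CPM on average (1.34 ± 0.24), and Hc, which was near 0 in both portions. Among 12 genes downstream of the ITAM adaptors, 10 interferon response genes and 5 class II genes, 0 passed by edgeR or DESeq2 over both strains and 0 had an unadjusted p under 0.05, while within C57BL/6J the interferon response gene Bst2 was lower (-0.999 ± 0.259, edgeR adjusted p = 0.0376).

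Other genes enriched in microglia did not all follow the members. Of 17 tested, 3 were lower in the posterior portion: Blnk, an adaptor of B cells and microglia, from 34.1 to 6.05 CPM on average (-2.67 ± 0.27), the protease gene Lgmn (-0.55 ± 0.08) and the UDP receptor gene P2ry6 (-0.85 ± 0.23). One of them was higher, Sparc (0.75 ± 0.13), which astrocytes and vessels also express. Blnk fell further than Aif1, the member with the strongest difference, and which cells held its RNA was not tested. Of 24 genes raised in disease-associated microglia, 4 were higher (Lpl, Cd63, Lgals3 and Cd9) and 3 lower (Ctsb, Gpnmb and Igf1), and other brain cells express several of them. For strain over both housings in the posterior portion, Gpnmb (-1.54 ± 0.23) and the ectonucleotidase gene Entpd1 (-0.60 ± 0.14) were lower in B6D2F1N. The chemokine receptor gene Ccr6 was at 0 in all 8 C57BL/6J posterior libraries and at 1.27 to 6.29 CPM in the 11 of B6D2F1N.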

How the data were processed

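RNA was extracted by the authors with the RNeasy Micro Kit, libraries were made with a single cell and low input kit, and single reads of 72 bases were sequenced. Per the labels and the submitters' processing notes, the tools were bcl2fastq, FastQC 0.11.7, Trimmomatic 0.38, HISAT2 2.1.0 with GRCm38 (mm10), SAMtools 1.8 and HTSeq 0.11.2. The deposited values are raw read counts per Ensembl gene in each library, which the authors did not normalize. The annotation release and strand setting are not given in the sources used here. Reads of both strains were aligned to one genome. HTSeq's rows for unassigned reads (no feature 13.7% to 26.4% of all) were left out. Reads carry no molecular identifiers.

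Symbols, exons and overlaps came from GENCODE M21. Counts were tested in R 4.3.3 with edgeR 4.0.16 (TMM, at least 10 counts in total over the libraries of a fit, quasi-likelihood F test, Benjamini-Hochberg adjustment over all genes tested, threshold 0.05), and with DESeq2 1.42.0 as an alternative. The SE of an edgeR log2 difference was taken as the size of the difference divided by the square root of the F statistic of its test. Mice are the replicates. Portions were paired by mouse from the labels: the deviations of a mouse's 2 libraries from their group means correlated with a median r of 0.06 (-0.11 to 0.20) across genes in 16 mice. Genes are named where they passed a main test, where an alternative changed a call, or where they hold a named role in the list. The members, lists and tests were chosen with earlier results of these data known. The fits over both housings or both strains and those without 2 sets of mice (choroid plexus markers summing over 10000 CPM, Dcn under 100 CPM) were chosen after seeing the data. The scripts were tested on simulated data. No columns of authors' comparisons were present.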

Additional observations from a re-analysis of the deposited data

Results flagged for a closer look

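In groups of 4 to 10 libraries, 231 pairs of a microglia gene and a group were examined for a library far from the others (gap over range above Dixon's critical value), and 10 (4.33%) were found, 7 high and 3 low. Chance gives about 1 in 20.

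C57BL/6J standard anterior mouse 2 held 3 of them. It was high in Itgam at 24.6 CPM (9.74 to 11.3 CPM in the others) and low in both adaptor genes, Tyrobp at 18.2 CPM (26.5 to 27.7 CPM) and Fcer1g at 14.1 CPM (26.9 to 27.5 CPM). B6D2F1N standard posterior mouse 1, the mouse with no Xist, was high in Ptprc at 339 CPM (5.04 to 22.1 CPM) and in the tetraspanin gene Cd53 at 60.5 CPM (19.9 to 30.1 CPM). B6D2F1N enriched posterior mouse 2 was high in Gpr34 at 75.2 CPM (28.4 to 41.3 CPM) and in Itgam at 12.5 CPM (6.90 to 8.90 CPM).

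The other 3 were single values. Cx3cr1 was at 101 CPM in C57BL/6J standard posterior mouse 4 (57.1 to 62.9 CPM in the others), C1qa at 61.5 CPM in C57BL/6J enriched posterior mouse 3 (48.0 to 50.1 CPM), and Siglech at 16.0 CPM in B6D2F1N enriched anterior mouse 1 (28.5 to 32.5 CPM).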

How the results depend on the processing

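Of the 14 results in which a member passed a test, none changed direction under the alternatives run. Members that did not pass were not followed through the alternatives one by one. Between portions, without the replicate block (unpaired) the count of members called was 5 over both strains, 2 in C57BL/6J (against 1 with it) and 2 in B6D2F1N. The block changed the call of Ctss and Siglech over both strains and of Tyrobp in C57BL/6J.

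DESeq2 called 4 members for portion in C57BL/6J and 4 in B6D2F1N, 2 for strain in standard anterior, 2 in standard posterior and 1 in enriched posterior libraries, and for housing 2 in C57BL/6J anterior and 1 in C57BL/6J posterior libraries. For strain over both housings it called 5 in the anterior and 4 in the posterior portion. With no minimum count the numbers were 2 for portion in C57BL/6J, 4 for portion over both strains, 1 and 2 for housing in C57BL/6J anterior and posterior libraries, and 1 for strain over both housings in the anterior portion. The filterByExpr filter gave 2 for strain in standard posterior libraries. Calls over all genes are not given here for the fits with no minimum count, with filterByExpr or without the replicate block. Their counts of members therefore have no share of all genes to be read against.

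Without the posterior libraries low in Dcn the numbers were 1 for portion in B6D2F1N, 3 for portion over both strains, 0 for strain in standard posterior libraries (with 1 B6D2F1N library left, assumed to vary like the others, which says nothing about stability) and 1 for strain over both housings in the posterior portion. Without the mice high in choroid plexus markers they were 4 for portion over both strains and 1 for strain over both housings in the anterior portion. In both portion fits without the libraries low in Dcn the count included Ptprc, which was low in those libraries. Calls over all genes are not given here for these fits either, and why the counts moved was not tested.

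With 1 mouse left out at a time, counts ran from 0 to 2 for portion in C57BL/6J (Ptprc 0.87, edgeR adjusted p = 0.0508, without standard mouse 4), 1 to 2 in B6D2F1N, 3 to 7 over both strains, 0 to 1 for strain in standard anterior, 0 to 2 in standard posterior libraries, 0 to 3 for strain over both housings in the anterior and 2 to 3 in the posterior portion. Housing in B6D2F1N posterior libraries, and strain by housing in the posterior portion, had 0 to 1, in each case Ptprc higher without B6D2F1N standard mouse 1. Calls over all genes in these fits ran from 602 to 1070 for portion in C57BL/6J, 770 to 1220 in B6D2F1N and 2109 to 2608 over both strains. For strain they ran from 60 to 83 in standard anterior and 59 to 166 in standard posterior libraries. With both housings they ran from 132 to 163 in the anterior and 213 to 263 in the posterior portion. These fits were not run for portion by strain or portion by housing, because of their time. Spi1 had 526 counts over the 35 libraries and Irf8 3319, with coefficients of variation of 96.8% and 42.9%.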
